A study of Mus musculus with 12 samples.

Results

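This account concerns the genes that write, copy, read and remove methyl groups on cytosine in DNA, namely Dnmt1, Uhrf1, Uhrf2, Dnmt3a, Dnmt3b, Tet1, Tet2, Tet3 and Mbd2, as measured in cultured B16-OVA cells, a transplantable mouse melanoma line made to express ovalbumin. Every probe set, that is, every group of short probes read out as 1 value, that the array annotation paired with 1 of these 9 genes alone was taken, which gave 23 of the 45037 probe sets that were not controls. Dnmt3a had 5, Tet1 had 4, Dnmt1 had 3, Tet3 had 1 and each other gene had 2, and 0 were shared with another gene. The 12 samples, 1 Affymetrix mouse expression array each, were 3 from cells given the MEK inhibitor GDC-0623 (MEKi) at 100 nM for 72 h, 3 given its solvent DMSO for 72 h, 3 given MEKi for 24 h and 3 given DMSO for 24 h, the drug or solvent having been added the day after seeding. All were cultures of 1 tumor cell line, so that no other line bears on these values. The replicates are called biological in the series text, but separate cultures are not named, and p-values then cover only the spread among these samples, which could be technical.

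DNA methylation in mammals lies mostly on the cytosine of CpG dinucleotides. When DNA is copied the new strand carries no methyl groups, and Uhrf1 binds such half-methylated sites and brings in Dnmt1, the maintenance methyltransferase, which restores the pattern. Dnmt3a and Dnmt3b, the de novo methyltransferases, set methyl groups on sites that had none, while the Tet dioxygenases oxidise methylcytosine as a first step towards its removal. Tet enzymes use 2-oxoglutarate, methyltransferases use S-adenosylmethionine, and Mbd2 is a reader that binds methylated CpG and recruits the NuRD repressor complex. Tumor cells, melanoma included, are known for changed methylation patterns and for low levels of the product of Tet activity.

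Dnmt1, Uhrf1 and Dnmt3b had probe sets called lower with MEKi at both times, and Tet1 had the greatest difference of all, so the sequences around the transcription starts of these 4 genes are shown, for what they hold and lack. Uhrf2 and Dnmt3a, each called lower in 1 probe set at 72 h alone, are not printed. Each window runs from 250 bases before to 50 bases after a start in RefSeq (GRCm38.p6), 5′ to 3′ on the strand of the gene. Where a gene had several starts, the window with the most CpG is given. Capitals mark the letters TTTNNCGC, a loose form of the site bound by the cell cycle factors of the E2F family, on either strand.
Dnmt1, chr9:20952574-20952873, minus strand: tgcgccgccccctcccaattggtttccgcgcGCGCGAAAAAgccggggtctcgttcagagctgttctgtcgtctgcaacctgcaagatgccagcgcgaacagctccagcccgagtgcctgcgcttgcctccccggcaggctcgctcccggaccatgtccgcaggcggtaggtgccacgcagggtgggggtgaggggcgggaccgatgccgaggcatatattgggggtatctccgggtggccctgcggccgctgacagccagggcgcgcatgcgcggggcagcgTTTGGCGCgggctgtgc
Uhrf1, chr17:56304063-56304362, plus strand: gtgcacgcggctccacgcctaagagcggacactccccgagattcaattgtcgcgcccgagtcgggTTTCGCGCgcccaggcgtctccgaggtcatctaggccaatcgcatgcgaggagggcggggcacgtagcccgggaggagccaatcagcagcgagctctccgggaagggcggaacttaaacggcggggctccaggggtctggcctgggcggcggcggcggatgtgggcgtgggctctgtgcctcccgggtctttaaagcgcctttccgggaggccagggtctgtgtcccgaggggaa
Dnmt3b, chr2:153649199-153649498, plus strand: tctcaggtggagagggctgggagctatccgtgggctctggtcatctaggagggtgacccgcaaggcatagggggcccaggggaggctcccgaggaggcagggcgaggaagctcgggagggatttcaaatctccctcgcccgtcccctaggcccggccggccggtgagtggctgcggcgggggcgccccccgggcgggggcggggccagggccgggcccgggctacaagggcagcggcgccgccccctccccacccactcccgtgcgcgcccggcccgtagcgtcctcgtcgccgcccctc
Tet1, chr10:62887275-62887574, minus strand: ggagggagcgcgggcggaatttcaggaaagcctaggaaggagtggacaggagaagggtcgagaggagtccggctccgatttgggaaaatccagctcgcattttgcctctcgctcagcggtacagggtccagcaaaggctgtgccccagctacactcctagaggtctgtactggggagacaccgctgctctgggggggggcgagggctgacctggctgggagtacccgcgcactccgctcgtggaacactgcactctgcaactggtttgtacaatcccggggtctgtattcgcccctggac

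The Dnmt1 window held 3 matches to TTTNNCGC, of which those at -219 to -212 and at -217 to -210, counted from the start, overlapped on the strand opposite to the one printed, and another stood at 34 to 41 on the printed strand. The Uhrf1 window held 1, at -185 to -178, and the windows of Dnmt3b and Tet1 held 0. Of all 32851 windows of this length in the table, 5.17% held the motif. The GC box GGGCGG, searched on both strands and held by 35.7% of all windows, occurred 2 times in the Dnmt1 window, 3 times in that of Uhrf1, 4 times in that of Dnmt3b and 1 time in that of Tet1. The windows held 33, 33, 30 and 17 CpG in the order Dnmt1, Uhrf1, Dnmt3b and Tet1, against a median of 7 over all windows. The windows of Dnmt1 and Uhrf1 were picked for the most CpG, while those of the whole table were not picked. The other Dnmt1 windows held 12 and 2 CpG and 0 matches to TTTNNCGC, and the other Uhrf1 window 12 CpG and 1 match. Both motifs contain a CpG, so their shares over all windows are not a like comparison for windows rich in CpG. Among the members, 8 of 9 were searched, and the windows of Uhrf2, Dnmt3a, Tet2 and Tet3 held 0 matches to TTTNNCGC. Mbd2, on chromosome 18, was left out of the search. A match says only that these letters are present.

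All values below are log2 signals, so that a difference of 1 is a 2-fold change, and differences are MEKi minus DMSO or 72 h minus 24 h with the standard error (SE) of the limma fit. A probe set was called where the Benjamini-Hochberg adjusted p of limma, over all 45037 probe sets, was under 0.05. Levels of different probe sets are not compared with each other, since their probes differ in brightness. The mean of a probe set over the arrays had a median of 5.363 over the table. The 7 melanocyte markers lay between 11.91 and 14.37 on all 12 arrays, and 15 markers of immune, fibroblast, endothelial and epithelial cells were measured. Of these, Ptprc, Pecam1 and Col1a1 lay at or below 3.47, 3.94 and 4.52, while Col1a2 reached 7.51, Pdgfrb 7.12 and Epcam 6.56. Averaged over its list, the array values of fibroblast markers were 5.06 to 5.22 with MEKi and 5.22 to 5.55 with DMSO at 72 h, and 5.46 to 5.48 with MEKi and 5.27 to 5.34 with DMSO at 24 h. With MEKi 0 of the 15 were called at 72 h and 3 at 24 h, Col1a2 (0.69 ± 0.09) and Lyz2 (0.38 ± 0.07) higher and Pdgfra (-0.36 ± 0.09) lower, each lost in at least 1 alternative. Between 72 h and 24 h 3 were called with MEKi, among them Col1a2 (-1.66 ± 0.11), and 4 with DMSO. The part of these markers in the results was not tested. For Dap, a control RNA spiked in ahead of labelling, the 3′ signal minus the 5′ signal differed between the harvest times. It was 1.42 ± 0.04 at 72 h and 2.06 ± 0.08 at 24 h (SD, n = 6 each). The exact two-sided permutation p was 0.00216, the smallest possible, and 0.0036 after adjustment over 5 measures. For the Phe spike the values were 1.30 ± 0.07 and 1.39 ± 0.15 (exact two-sided permutation p = 0.249). For Gapdh they were -0.07 ± 0.03 and -0.04 ± 0.02 (exact two-sided permutation p = 0.0476, and 0.0595 after adjustment). At 72 h and 24 h the array median was 5.393 ± 0.021 and 5.325 ± 0.01, and the interquartile range 4.093 ± 0.051 and 4.282 ± 0.034. For both, the exact two-sided permutation p was 0.00216, and 0.0036 after adjustment. The part of these measures in differences between times was not tested. Arrays of 1 group correlated at 0.996 to 0.998 across probe sets. The drug's target pathway was checked on 5 genes of ERK output, of which 4 were called lower with MEKi at 72 h and 5 at 24 h. Ccnd1 was not called at 72 h (-0.37 ± 0.17, adjusted p = 0.249). Of the 4 calls at 72 h, 2, those of Egr1 and Spry4, were lost in an alternative (adjusted p of up to 0.26 and 0.157). Egr1 was uneven among the MEKi arrays of 72 h, at 7.42 ± 2.14 against 10.56 ± 0.31 with DMSO (SD, n = 3). Its difference at 72 h was -4.37 to -2.39 over the alternatives. Etv5, an ETS factor switched on by ERK, was at 4.06 ± 0.13 with MEKi and 5.35 ± 0.24 with DMSO at 72 h (SD, n = 3). At 24 h Etv5 was at 4.88 ± 1.04 with MEKi and 8.94 ± 0.07 with DMSO, and it was called at both times.

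More of these probe sets were lower than higher with MEKi. At 72 h 11 of the 23 were lower with MEKi and 1 was higher, where 7.24% of all probe sets were called, 4.25% lower and 2.99% higher. At 24 h 6 were lower and 0 were higher, where 8.44% of all were called, 4.61% lower and 3.83% higher. The median difference of the members was -0.24 at 72 h and -0.23 at 24 h, against medians over all probe sets of 0.01 at both times. An unadjusted p under 0.05 was reached by 16 at 72 h and 14 at 24 h. The MEKi and DMSO arrays did not overlap in 16 probe sets at 72 h and 15 at 24 h, as in 24.6% and 28.1% of all probe sets. In bulk RNA, fewer cells of a kind, for example of cells copying their DNA, and less RNA per cell cannot be told apart. Probe sets of 1 gene share their transcript and are not independent of each other. The members were chosen with earlier results of these data known, so their counts beside these shares are a description and not a test.

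**Figure D1:**
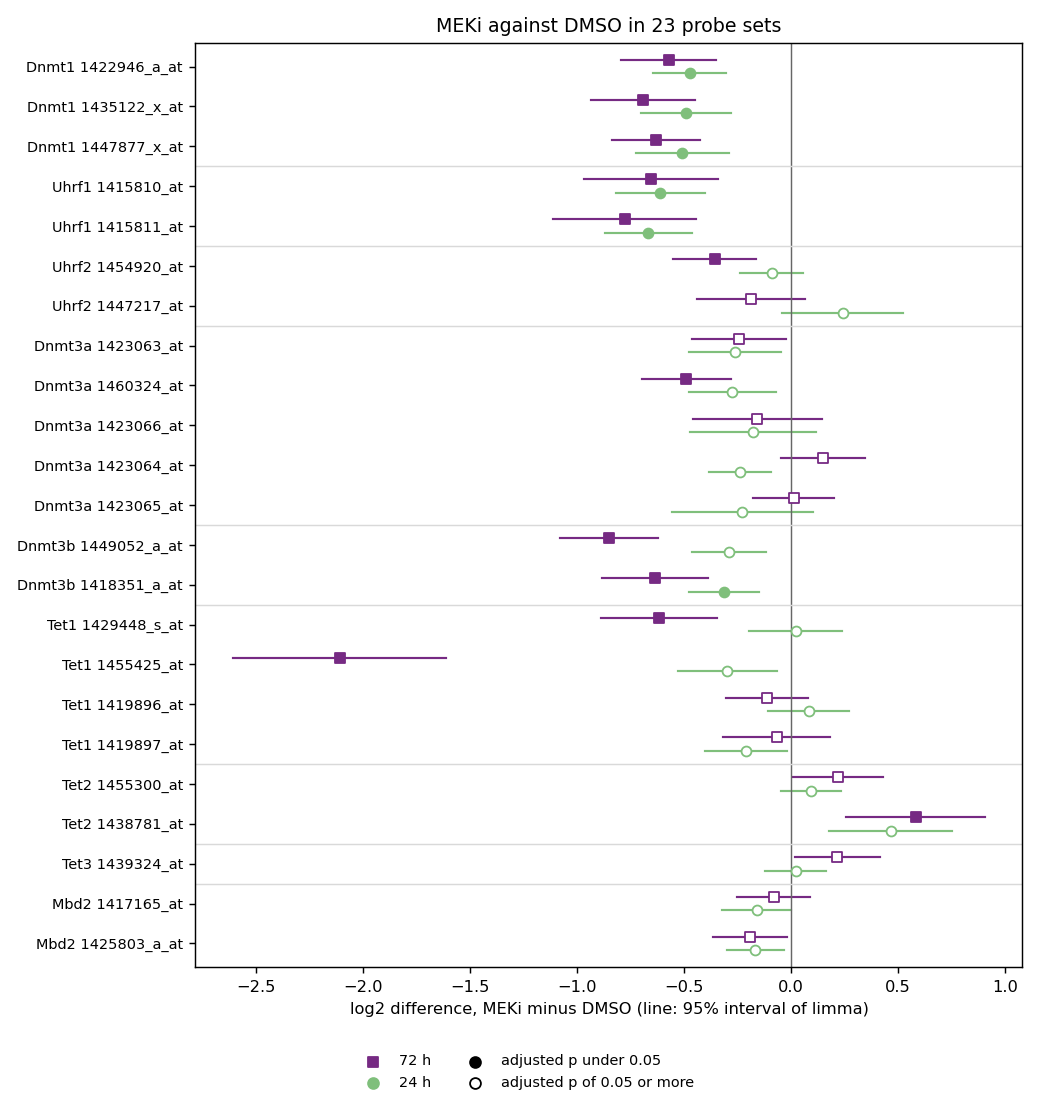
Log2 difference, MEKi minus DMSO, of each of the 23 probe sets (horizontal axis) at 72 h (squares) and 24 h (circles), with 95% intervals of limma; filled marks had an adjusted p under 0.05. All 7 probe sets of Dnmt1, Uhrf1 and Dnmt3b lie left of 0 at both times, and Tet1 1455425_at stands farthest left at 72 h.

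Dnmt1, the maintenance methyltransferase, was lower with MEKi in all 3 of its probe sets at both times. Its brightest probe set, 1422946_a_at, gave 10.28, 10.15 and 10.28 with MEKi and 10.74, 10.99 and 10.69 with DMSO at 72 h. It gave 10.86, 10.85 and 11.07 with MEKi and 11.42, 11.38 and 11.40 with DMSO at 24 h. At each time every MEKi array was below every DMSO array, and the DMSO arrays at 72 h overlapped with the MEKi arrays at 24 h. The difference was -0.57 ± 0.10 at 72 h (1.48-fold; adjusted p = 0.00881) and -0.47 ± 0.08 at 24 h (1.39-fold; adjusted p = 0.00982). In 1435122_x_at the differences were -0.69 ± 0.11 and -0.49 ± 0.09, and in 1447877_x_at -0.63 ± 0.09 and -0.51 ± 0.10, for 72 h and 24 h. Probe sets whose names end in _x_at can hold probes that match other transcripts, and whether they did so here was not tested. Over the 12 arrays, which fall into 4 groups, the 3 probe sets correlated with each other at r = 0.97 to 0.99. The 72 h calls held when any 1 array was left out. At 24 h the call of 1422946_a_at was lost without MEKi replicate 1 (-0.44; adjusted p = 0.0501), and those of both _x_at probe sets were lost without any 1 array except MEKi replicate 3, with adjusted p of 0.0523 to 0.0752.

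Uhrf1, the reader of half-methylated DNA that recruits Dnmt1, was also lower with MEKi in both of its probe sets at both times. Probe set 1415810_at gave 10.77, 10.64 and 10.70 with MEKi and 11.47, 11.60 and 11.00 with DMSO at 72 h. It gave 11.44, 11.33 and 11.64 with MEKi and 12.11, 11.98 and 12.15 with DMSO at 24 h. The groups did not overlap at either time, although DMSO replicate 3 at 72 h lay below the other DMSO arrays of that time. The difference was -0.65 ± 0.14 at 72 h (1.57-fold; adjusted p = 0.022) and -0.61 ± 0.09 at 24 h (1.53-fold; adjusted p = 0.00794). In 1415811_at it was -0.78 ± 0.15 at 72 h (adjusted p = 0.0134) and -0.67 ± 0.09 at 24 h (adjusted p = 0.00543). Both 24 h calls held when any 1 array was left out. At 72 h the call of 1415810_at held only without DMSO replicate 3, and was lost without any other array (-0.69 to -0.53; adjusted p of 0.056 to 0.0907), and that of 1415811_at was lost without MEKi replicate 2 (-0.68; adjusted p = 0.0633).

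Uhrf2, the paralog of Uhrf1, which does not stand in for it in maintenance, was called at 72 h in 1 of 2 probe sets. Its brighter probe set 1454920_at gave 8.30, 8.36 and 8.48 with MEKi and 8.82, 8.73 and 8.66 with DMSO at 72 h, without overlap. At 24 h it gave 8.65, 8.59 and 8.68 with MEKi and 8.78, 8.66 and 8.75 with DMSO, where the groups overlapped. The difference was -0.36 ± 0.09 at 72 h (adjusted p = 0.0382) and -0.09 ± 0.06 at 24 h (adjusted p = 0.46, 95% interval -0.24 to 0.06). With the replicate number as a block, the adjusted p at 72 h was 0.056. It was 0.0509 after a second quantile normalization and 0.0693 for the mean over both probe sets, and the call was also lost without DMSO replicate 1 or 2 or MEKi replicate 1 or 2 (adjusted p of 0.0788 to 0.145). The other probe set, 1447217_at, lay between 2.80 and 3.45 on all arrays, at the 5.9th percentile of probe set means, and was not called.

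**Figure D2:**
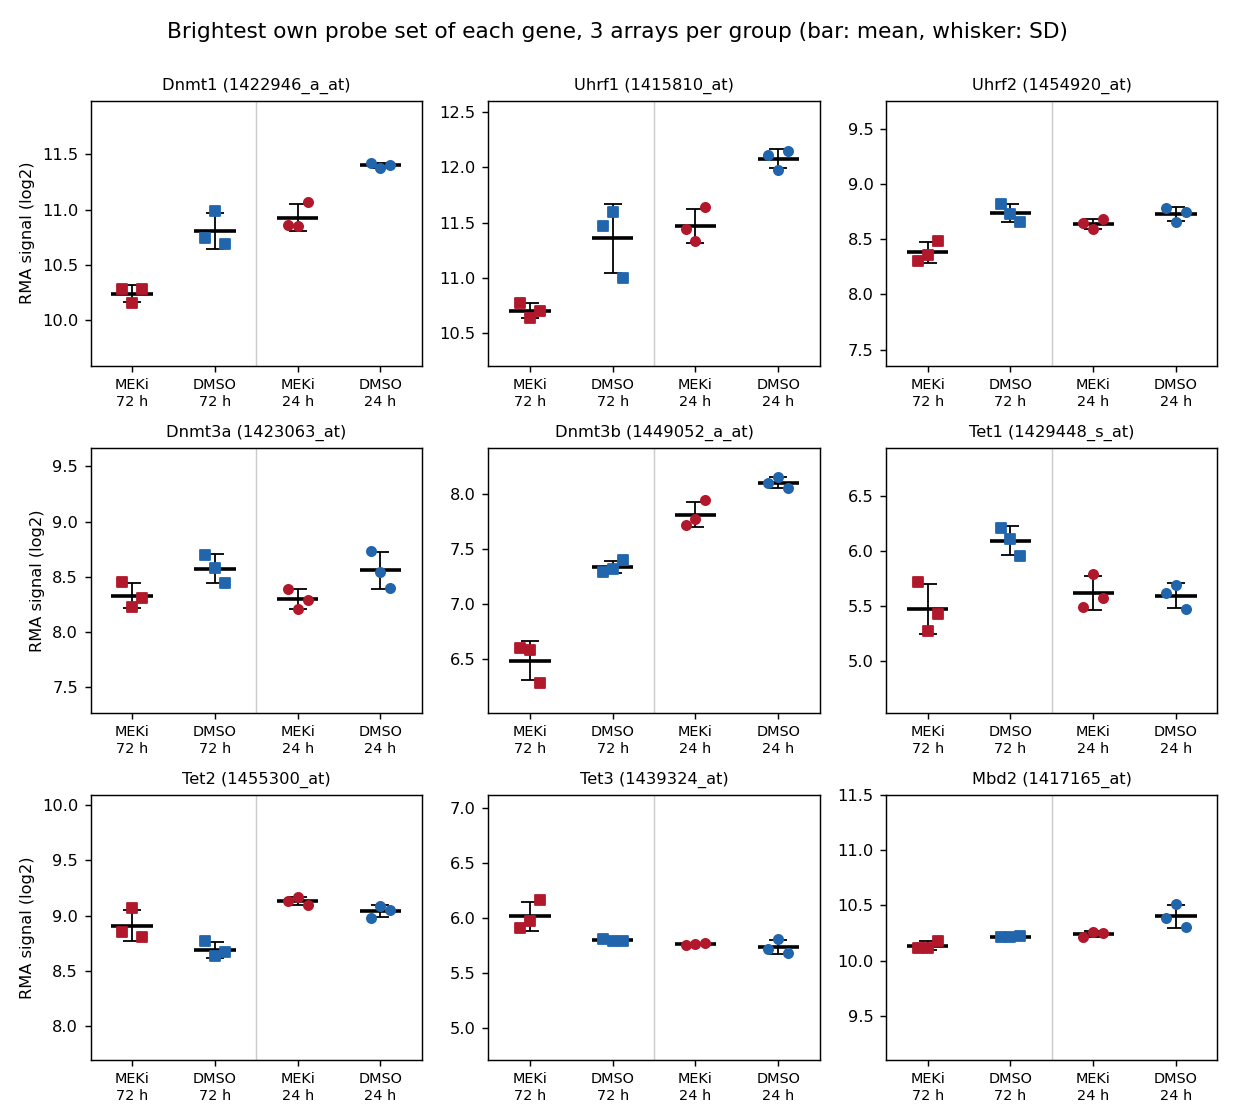
Log2 RMA signal (vertical axis, each panel spanning the same height) of the brightest own probe set of each of the 9 genes on each array, with MEKi in red, DMSO in blue, squares for 72 h and circles for 24 h; bars are group means and whiskers SD (n = 3). In the Dnmt1, Uhrf1 and Dnmt3b panels the 72 h MEKi arrays are the lowest of all 12, while for Tet1 the 72 h DMSO arrays are the highest.

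Of the de novo enzymes, Dnmt3b was lower with MEKi at 72 h in both probe sets and Dnmt3a in 1 of 5. Dnmt3b 1449052_a_at gave 6.60, 6.58 and 6.28 with MEKi and 7.29, 7.32 and 7.40 with DMSO at 72 h. It gave 7.72, 7.77 and 7.94 with MEKi and 8.10, 8.15 and 8.05 with DMSO at 24 h. The groups stood apart at both times, and the nearest arrays were closer to each other at 24 h than at 72 h. The difference was -0.85 ± 0.10 at 72 h (1.8-fold; adjusted p = 0.00177) and -0.29 ± 0.08 at 24 h, where the adjusted p of 0.0516 just missed the threshold. In 1418351_a_at it was -0.64 ± 0.11 at 72 h (adjusted p = 0.00872) and -0.31 ± 0.07 at 24 h (adjusted p = 0.0331). That 24 h call was lost with all 12 arrays in 1 fit, with the replicate number as a block (adjusted p = 0.0618) and without any 1 array except MEKi replicate 3 (-0.35 to -0.27; adjusted p of 0.0611 to 0.117). Both 72 h calls held when any 1 array was left out. At 24 h 1449052_a_at was called with brighter probe sets only, array weights, a trended and robust prior or arrays centred on their medians. It was also called without MEKi replicate 3 and for the mean over both probe sets. Fits without 1 of the other arrays gave no call for it, with adjusted p of up to 0.168.

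For Dnmt3a, 1460324_at gave 8.11, 7.88 and 8.14 with MEKi and 8.54, 8.48 and 8.58 with DMSO at 72 h, and 8.20, 8.04 and 8.01 with MEKi and 8.51, 8.33 and 8.23 with DMSO at 24 h. MEKi arrays were the lower ones at both times. The difference was -0.49 ± 0.09 at 72 h (1.4-fold; adjusted p = 0.0127) and -0.27 ± 0.09 at 24 h (adjusted p = 0.105). The 72 h call was lost without DMSO replicate 1 (adjusted p = 0.0523) or MEKi replicate 2 (-0.41; adjusted p = 0.0558). The brightest probe set, 1423063_at, differed by -0.24 ± 0.10 at 72 h (adjusted p = 0.195) and -0.26 ± 0.09 at 24 h (adjusted p = 0.136). The other 3 differed by -0.16 to 0.15 at 72 h and by -0.24 to -0.18 at 24 h, with 0 calls. Over the 12 arrays the 5 Dnmt3a probe sets correlated with each other at -0.22 to 0.85, so they did not give 1 course for this gene.

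Tet1, the dioxygenase best known from embryonic stem cells, held the probe set with the greatest difference of the 23 between MEKi and DMSO. Probe set 1455425_at gave 4.40, 3.84 and 4.83 with MEKi and 6.71, 6.16 and 6.53 with DMSO at 72 h. At 24 h it gave 4.49, 4.73 and 4.85 with MEKi and 5.11, 4.93 and 4.92 with DMSO. The 72 h DMSO arrays stood above the 9 others by more than 1, and with MEKi the 72 h and 24 h arrays overlapped. The difference was -2.11 ± 0.22 at 72 h (4.32-fold; adjusted p = 0.00111) and -0.30 ± 0.10 at 24 h (adjusted p = 0.119). The 72 h call held when any 1 array was left out. The values of the 9 lower arrays were below the median of all probe sets on an array, and the table gives no detection call, so how far they stood above background was not known.

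The brightest Tet1 probe set, 1429448_s_at, gave 5.72, 5.27 and 5.43 with MEKi and 6.21, 6.11 and 5.95 with DMSO at 72 h, without overlap. It gave 5.49, 5.79 and 5.57 with MEKi and 5.62, 5.69 and 5.47 with DMSO at 24 h, where the groups were mixed. The difference was -0.62 ± 0.12 at 72 h (1.53-fold; adjusted p = 0.0152) and 0.02 ± 0.10 at 24 h (adjusted p = 0.923, 95% interval -0.19 to 0.24). The 72 h call was lost without DMSO replicate 1 (-0.56; adjusted p = 0.0668) or MEKi replicate 2 (-0.52; adjusted p = 0.0663). The other Tet1 probe sets, 1419896_at and 1419897_at, lay between 3.67 and 4.77 on all arrays and differed at 72 h by -0.11 ± 0.09 and -0.07 ± 0.11, with 0 calls at either time. The 4 probe sets correlated with each other at 0.05 to 0.87 over the arrays, so the difference at 72 h was that of 2 of them. Whether probes of 1429448_s_at also match other transcripts was not tested.

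**Figure D3:**
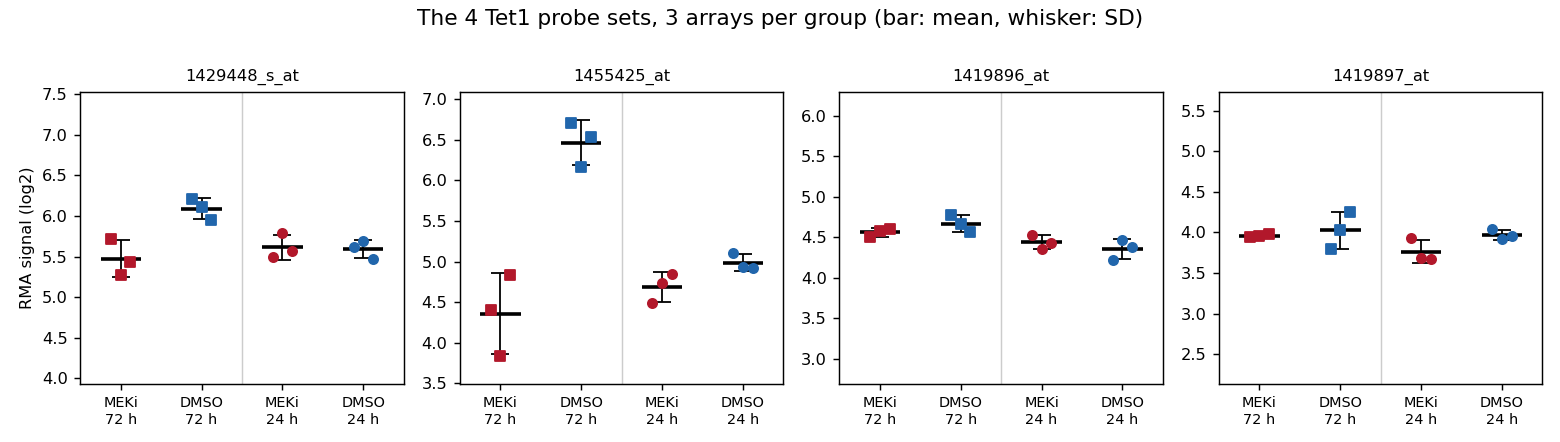
Log2 RMA signal of the 4 Tet1 probe sets (vertical axis, each panel spanning the same height) on each array, with MEKi in red, DMSO in blue, squares for 72 h and circles for 24 h; bars are means and whiskers SD (n = 3). The 72 h DMSO arrays stand above the rest in 1455425_at (6.16 to 6.71) and 1429448_s_at (5.95 to 6.21), and no group stands apart in 1419897_at.

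Tet2, the Tet enzyme often mutated in human blood cancers, went the other way in 1 probe set. In 1438781_at it gave 7.66, 7.86 and 7.38 with MEKi and 7.18, 6.78 and 7.19 with DMSO at 72 h, and 7.51, 7.52 and 7.41 with MEKi and 6.74, 7.01 and 7.29 with DMSO at 24 h. MEKi arrays were the higher ones at both times without overlap. The difference was 0.58 ± 0.15 at 72 h (1.5-fold; adjusted p = 0.0402) and 0.47 ± 0.13 at 24 h (adjusted p = 0.0581). The 72 h call, the only one in the higher direction, was lost with the replicate number as a block (adjusted p = 0.0576), after centring the arrays on their medians (adjusted p = 0.0532) and without any 1 array except MEKi replicate 3 (0.45 to 0.65; adjusted p of 0.0558 to 0.155). The brightest Tet2 probe set, 1455300_at, gave 8.85, 9.07 and 8.81 with MEKi and 8.77, 8.63 and 8.67 with DMSO at 72 h. It differed by 0.22 ± 0.10 at 72 h (adjusted p = 0.228) and by 0.09 ± 0.06 at 24 h (adjusted p = 0.425). The mean over both Tet2 probe sets was called higher at 72 h, just under the threshold (adjusted p = 0.0499).

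Tet3, known for oxidising the paternal genome in the mouse zygote, had 1 probe set, 1439324_at, at 5.91, 5.97 and 6.16 with MEKi and 5.81, 5.79 and 5.79 with DMSO at 72 h. The 72 h MEKi arrays were the highest of the 12, but the difference of 0.22 ± 0.09 did not pass (adjusted p = 0.205), and at 24 h it was 0.02 ± 0.06 (adjusted p = 0.873). Mbd2, the reader, gave 10.11, 10.11 and 10.18 with MEKi and 10.21, 10.21 and 10.22 with DMSO at 72 h in 1417165_at, and 10.21, 10.26 and 10.25 with MEKi and 10.39, 10.51 and 10.30 with DMSO at 24 h. The differences of -0.08 ± 0.08 and -0.16 ± 0.07 were not called. In 1425803_a_at they were -0.19 ± 0.08 and -0.17 ± 0.06, for 72 h and 24 h, again without a call. The MEKi arrays were below the DMSO arrays in both Mbd2 probe sets at both times, by at most 1.14-fold.

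Whether the effect of MEKi differed between the times was tested as a contrast on all 12 arrays. Of the 23 probe sets 2 were called, both with a lower effect at 72 h than at 24 h, where 3.02% of all probe sets were called, 1.66% lower and 1.36% higher. An unadjusted p under 0.05 was reached by 7. For Tet1 1455425_at the effect at 72 h minus that at 24 h was -1.81 ± 0.28 (adjusted p = 0.00473), and it stayed called without any 1 array. For Dnmt3b 1449052_a_at it was -0.56 ± 0.13 (adjusted p = 0.033). That call was lost with the replicate number as a block (adjusted p = 0.0597) and in 8 of the 12 fits without 1 array, namely those without any of the 6 arrays of 24 h or without DMSO replicate 1 or 3 of 72 h (-0.61 to -0.50, with adjusted p of 0.0508 to 0.0873). For Tet1 1429448_s_at it was -0.64 ± 0.17 with an adjusted p of 0.056, and of 0.0252 with the block. Dnmt3a 1423064_at went the other way, at 0.39 ± 0.10 (adjusted p = 0.0638). That difference was called with brighter probe sets only, with array weights and without MEKi replicate 1 of 72 h. For Dnmt1 the differences of effects were -0.20 to -0.10 and for Uhrf1 -0.11 and -0.04, none called, with 95% intervals reaching from -0.52 to 0.35 over these 5 probe sets.

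The members also differed between the harvest times. These comparisons share arrays with those above, so the values are set side by side and no overlap is drawn from them. At 72 h against 24 h, 8 of 23 probe sets were lower and 0 higher with MEKi, where 25.2% of all were called, 13.9% lower and 11.3% higher. With DMSO 9 were lower and 3 higher, where 25.6% of all were called, 14.3% lower and 11.3% higher. The 2 sets of arrays did not overlap in 13 probe sets with MEKi and 14 with DMSO, as in 40.9% and 41.1% of all probe sets. The differences in the Dap spike, the array median and the interquartile range lie between the arrays set against each other in both.

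Dnmt1 1422946_a_at was lower at 72 h than at 24 h, with differences of -0.69 ± 0.09 with MEKi (adjusted p = 0.000424) and -0.59 ± 0.09 with DMSO (adjusted p = 0.00181). Uhrf1 1415810_at was lower as well, with differences of -0.77 ± 0.09 with MEKi (adjusted p = 0.000343) and -0.72 ± 0.14 with DMSO (adjusted p = 0.00628). Dnmt3b 1449052_a_at showed the widest of these gaps, at -1.32 ± 0.11 with MEKi (2.5-fold; adjusted p = 3.97e-05) and -0.76 ± 0.07 with DMSO (1.7-fold; adjusted p = 0.000207). The maintenance pair and Dnmt3b thus had their highest arrays with DMSO at 24 h and their lowest with MEKi at 72 h. The other probe sets of these 3 genes were called lower in both comparisons as well, by -0.67 to -0.57 with MEKi and by -0.47 to -0.35 with DMSO. With DMSO, the call of Uhrf1 1415811_at was lost after a second quantile normalization and without any 1 array except 72 h replicate 2, that of Dnmt3b 1418351_a_at after the same and without replicate 1 or 2 of 24 h or 1 or 3 of 72 h, and that of Dnmt1 1435122_x_at without 24 h replicate 2.

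Tet1 went up in DMSO over the same time. Probe set 1455425_at was at 6.47 ± 0.28 at 72 h and 4.99 ± 0.11 at 24 h with DMSO (SD, n = 3), a difference of 1.48 ± 0.13 (SE; 2.79-fold; adjusted p = 0.000178). With MEKi it was at 4.36 ± 0.50 at 72 h and 4.69 ± 0.18 at 24 h, a difference of -0.33 ± 0.21 (SE; adjusted p = 0.278, 95% interval -0.80 to 0.14), which was called only without MEKi replicate 3 at 72 h (-0.57; adjusted p = 0.0402). In 1429448_s_at the difference was -0.14 ± 0.12 with MEKi (adjusted p = 0.434) and 0.50 ± 0.09 with DMSO (adjusted p = 0.005). Tet1 1419896_at was also higher at 72 h with DMSO, by 0.31 ± 0.09 (adjusted p = 0.0331), a call lost after centring the arrays on their medians (adjusted p = 0.0815), after a second quantile normalization (adjusted p = 0.0988) and without 24 h DMSO replicate 1 or 3 or 72 h DMSO replicate 1 or 2. Tet2 1455300_at differed by -0.22 ± 0.09 with MEKi (adjusted p = 0.0899) and by -0.35 ± 0.07 with DMSO (adjusted p = 0.00868), where the mean over both Tet2 probe sets was not called (adjusted p = 0.265). Dnmt3a 1423064_at differed by -0.06 ± 0.08 with MEKi (adjusted p = 0.658) and by -0.45 ± 0.07 with DMSO (adjusted p = 0.00222), and Uhrf2 1454920_at by -0.26 ± 0.08 with MEKi (adjusted p = 0.036) and 0.01 ± 0.08 with DMSO (adjusted p = 0.962). The Uhrf2 call was lost after a second quantile normalization (adjusted p = 0.233) and without any 1 array except 72 h MEKi replicate 3. Tet3 and Mbd2 were called in neither comparison.

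**Figure D4:**
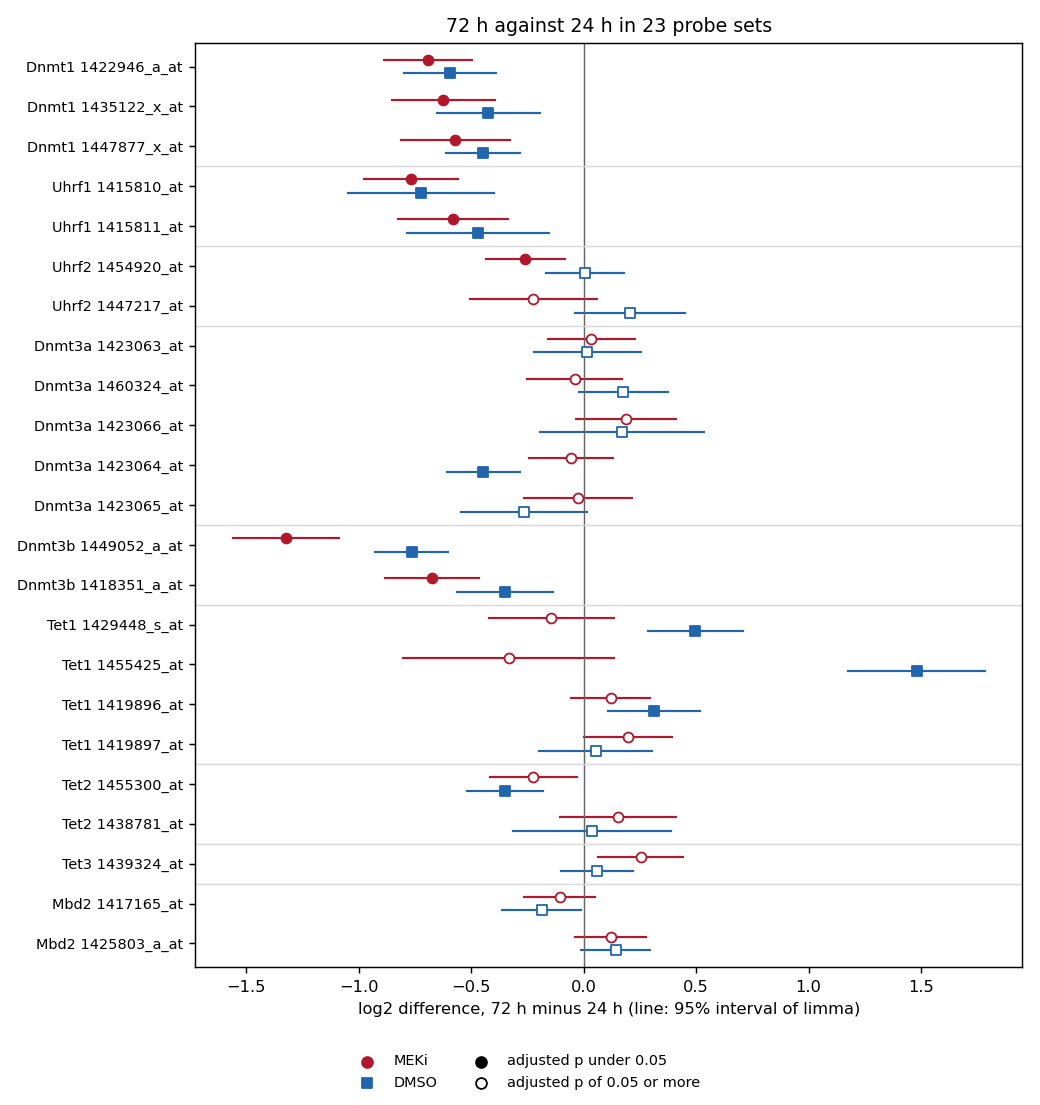
Log2 difference, 72 h minus 24 h, of each of the 23 probe sets (horizontal axis) with MEKi (circles) and DMSO (squares), with 95% intervals of limma; filled marks had an adjusted p under 0.05. All 7 probe sets of Dnmt1, Uhrf1 and Dnmt3b lie left of 0 under both conditions, and Tet1 1455425_at lies at 1.48 with DMSO and -0.33 with MEKi.

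The genes that act beside the members were followed as lists, each gene by its brightest own probe set. These lists too were chosen with earlier results of these data known. Of all 18193 genes, 9.17% were called at 72 h (5.14% lower and 4.03% higher) and 10.9% at 24 h (5.86% lower and 5.01% higher), with median differences of 0.01 at both times. Of 8 genes listed as partners of maintenance methylation, 5 were lower with MEKi at 72 h and 3 at 24 h. With MEKi 0 were higher at either time (medians -0.51 and -0.23). Cdca7, which brings the remodeller Hells to chromatin, was at 7.86 ± 0.13 with MEKi and 8.90 ± 0.24 with DMSO at 72 h (-1.04 ± 0.13; adjusted p = 0.00179) and at 9.09 ± 0.15 with MEKi and 9.87 ± 0.07 with DMSO at 24 h (-0.78 ± 0.09; adjusted p = 0.00307). Hells itself, a helicase needed for normal methylation, was lower, differing by -0.44 ± 0.08 at 72 h and -0.51 ± 0.07 at 24 h. Pclaf, a PCNA-binding protein, was lower, differing by -0.74 ± 0.11 and -0.31 ± 0.07. Each of these was a call, and that of Pclaf at 24 h did not hold in every alternative (adjusted p of up to 0.107). Cdca7l (-0.61 ± 0.08) and the replication ligase Lig1 (-0.59 ± 0.10) were lower at 72 h.

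Genes of DNA replication moved along with the maintenance pair, and their part in its difference was not tested. Of 13 genes of S phase and replication origins, 11 were lower at 72 h and 9 at 24 h with MEKi, with 0 higher (medians -0.59 and -0.37). The origin licensing factors Mcm7 (-0.82 ± 0.10) and Cdt1 (-0.78 ± 0.09) and the helicase subunit Mcm3 (-0.77 ± 0.12) had the largest differences at 72 h. At 24 h these were Cdt1 (-0.64 ± 0.09), Mcm3 (-0.51 ± 0.06) and the licensing factor Cdc6 (-0.48 ± 0.08). Of these calls 4 at 72 h and 7 at 24 h, that of Cdc6 at 24 h among them, were lost in at least 1 alternative (adjusted p of up to 0.136 and 0.131). The count fell to 7 at 72 h without MEKi replicate 2 and to 4 at 24 h without MEKi replicate 1, and to 0 at both times with a change of at least 2-fold required. With DMSO alone 11 of the 13 were lower at 72 h than at 24 h, where 31.1% of all genes were called and 16.9% were lower.

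Of 13 measured genes that supply the methyl donor or 2-oxoglutarate, 5 were lower and 1 higher at 72 h and 7 were lower and 0 higher at 24 h with MEKi (medians -0.18 and -0.24). The serine hydroxymethyltransferases, which feed carbon units into the folate cycle, led at 72 h, with Shmt1 at 7.98 ± 0.08 with MEKi and 8.70 ± 0.15 with DMSO (-0.73 ± 0.10) and Shmt2 at -0.69 ± 0.11. At 24 h Shmt1 differed by -0.54 ± 0.10 and Shmt2 by -0.46 ± 0.07. Mthfd2, a mitochondrial folate enzyme, differed by -0.63 ± 0.12 at 72 h and -0.47 ± 0.06 at 24 h, both calls. Ahcy, which clears the by-product that inhibits methyltransferases, was among the called genes at both times, by -0.45 ± 0.09 and -0.37 ± 0.07. The gene higher at 72 h was Ogdh, a subunit of the 2-oxoglutarate dehydrogenase complex (0.44 ± 0.11; adjusted p = 0.0376, and up to 0.138 in alternatives). The 72 h calls of Mthfd2 and Ahcy and the 24 h calls of Shmt1 and Ahcy were lost in some alternatives, with adjusted p of up to 0.0854. Without any 1 array except MEKi replicate 3, 2 of the list were called lower at 24 h, and at 72 h the number of lower calls without 1 array was 2 to 5, lowest without MEKi replicate 1 or 2.

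Few genes of the remaining lists were called. Of 8 partners of de novo methylation 0 were called at 72 h and 1 at 24 h, Trim28, the corepressor of KRAB zinc finger proteins (-0.32 ± 0.07; adjusted p = 0.0246, and up to 0.0977 in alternatives). Of 6 genes listed as readers of methylated CpG, Mbd4, which also removes mismatched thymine, was lower at 72 h (-0.58 ± 0.10, adjusted p = 0.00846). Zbtb4 was higher at 24 h (0.69 ± 0.17, adjusted p = 0.0419, and up to 0.128 in alternatives). Of 12 genes for removal of modified cytosine, the glycosylase Neil3 was lower at 72 h (-0.73 ± 0.09; adjusted p = 0.00188) and the uracil glycosylase Ung at 24 h (-0.70 ± 0.08; adjusted p = 0.00404). Of 14 genes listed as germline genes that promoter methylation silences in somatic mouse cells, 0 were higher at either time, and Tdrkh, at 8.55 ± 0.04 with MEKi and 8.92 ± 0.07 with DMSO and so not silent here, was lower at 72 h (-0.37 ± 0.08; adjusted p = 0.0232, and up to 0.0952 in alternatives), with list medians of -0.08 and 0.01. The RNA level of such genes is not a measure of their methylation, which was not assayed.

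**Figure D5:**
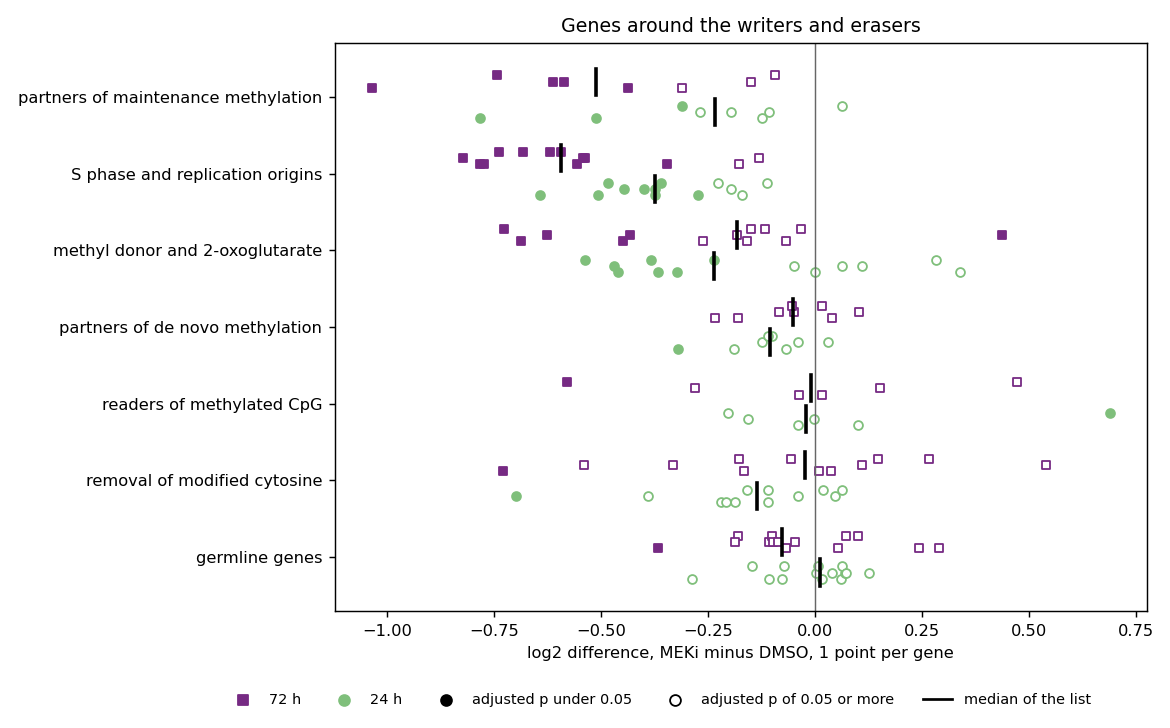
Log2 difference, MEKi minus DMSO (horizontal axis), of each gene of 7 lists at 72 h (squares) and 24 h (circles); filled marks had an adjusted p under 0.05 and black bars are list medians. The lists of maintenance partners and of S phase lie almost wholly left of 0 (medians -0.51 and -0.59 at 72 h), and the germline genes lie around 0.

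Finally, the courses of the genes over the 12 arrays were compared, as a description only, since the arrays fall into 4 groups and share their treatments. By their brightest probe sets Dnmt1 and Uhrf1 ran together at r = 0.98, Dnmt1 and Dnmt3b at 0.94 and Uhrf1 and Dnmt3b at 0.90, while Dnmt1 and Tet1 gave 0.14. Among 10870 genes with a mean at or above the median probe set, the most alike to Dnmt1 were Cdca7 (r = 0.995), Neto2 (0.994) and Timeless (0.993). For Uhrf1 they were Nup107 (0.992), Dgkz (0.989) and Ahcy (0.987), and for Dnmt3b Arhgap11a (0.989), Ipo5 (0.988) and Tmpo (0.988). For Tet1 they were Zfand4 (0.936), the melanocortin receptor Mc1r (0.935) and Eid1 (0.917), and for Uhrf2 Fmc1 (0.953), Miip (0.952) and Mcm8 (0.952).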

How the data were processed

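Total RNA (200 ng) of 12 samples was labelled with the 3′ IVT Plus kit and hybridised to Affymetrix mouse expression arrays, 3 per group. The deposited values were log2 signals after Robust Multichip Averaging (RMA) by the authors, which corrects background, equalises the distributions of the arrays and summarises the probes of a probe set, and they ranged over 2.21 to 14.47. The distributions were still not fully equal, with array medians of 5.31 to 5.42 and interquartile ranges of 4.06 to 4.33. Software versions are not given in the sources used here, and precision is limited by how many arrays there were.

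The table held 45101 probe sets, and 64 controls were left out of the tests. The annotation gave 1 gene for 34945 of the others, several for 932 and 0 for 9160. A gene of a list was read by its own probe set with the highest mean over the 12 arrays (18193 genes), and a gene without one was not analysed here.

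Two-sided limma tests (version 3.58.1, R 4.3.3) with empirical Bayes moderation were fitted to the 6 arrays of each comparison, and the difference of MEKi effects to all 12, with Benjamini-Hochberg adjustment over 45037 probe sets and a threshold of 0.05. The scripts were tested on simulated data. Alternatives were arrays centred on their median, a second quantile normalization, brighter probe sets only, all 12 arrays in 1 fit, array weights, a prior that was trended and robust, a replicate block, calls with a 2-fold minimum, the mean of all probe sets per gene, and fits without 1 array each.

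To check whether replicate numbers mark pairs, deviations from group means were correlated. MEKi and DMSO arrays of 1 time with the same number gave 0.207 to 0.307 over the brighter probe sets (0.073 to 0.189 over all), against -0.288 to 0.002 with different numbers. Within a time, arrays of the same number were thus the more alike ones. The tests were still fitted without pairing, and the blocked value is given where it ends a call. Across times the same number gave -0.238 to 0.202, so it marks no pair there.

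The members and gene lists were chosen with earlier results of these data known. Named list genes were up to 3 called ones per list and MEKi comparison with the largest difference, and the named alike genes the 3 with the highest r for Dnmt1, Uhrf1, Uhrf2, Dnmt3b and Tet1. Ahcy, Lig1, Ogdh, Ccnd1, single markers and the values of a named gene at the other time were added after the values were seen.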

Additional observations from a re-analysis of the deposited data

Results flagged for a closer look

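The effect of MEKi differed between the times, by the contrast on all 12 arrays, in 2 member probe sets and 6 genes of the lists. Tet1 1455425_at (-1.81) and Dnmt3b 1449052_a_at (-0.56) had a lower effect at 72 h than at 24 h, and their values stand in the text. The same held for Cdca7l (-0.51 ± 0.10, adjusted p of limma 0.015), the glycosylase Neil3 (-0.54 ± 0.11, adjusted p = 0.0192, and up to 0.0583 in alternatives), the isocitrate dehydrogenase Idh2 (-0.50 ± 0.10, adjusted p = 0.014) and the proliferation marker Mki67 (-0.51 ± 0.10, adjusted p = 0.0166, and up to 0.0523 in alternatives). For Idh2 the difference between MEKi and DMSO was -0.43 at 72 h and 0.06 at 24 h. The ERK targets Spry4 (1.50 ± 0.22, adjusted p = 0.00351) and Etv5 (2.77 ± 0.48, adjusted p = 0.00852) had a less negative effect at 72 h. Etv5 with DMSO was itself lower at 72 h (5.35) than at 24 h (8.94).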

How the results depend on the processing

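The count of called members depended most on the threshold and the number of arrays. With a change of at least 2-fold also required, 1 member stayed called for MEKi against DMSO at 72 h, 0 at 24 h, 1 for the difference of effects, 1 for 72 h against 24 h with MEKi and 1 with DMSO. At 24 h the count was 11 with brighter probe sets only, 10 with a trended and robust prior and 10 with array weights, 1 of them higher in each case, and for the difference of effects it was 4 with array weights. Leaving out 1 array gave 6 to 11 calls for MEKi at 72 h (fewest without MEKi replicate 2, and 7 without DMSO replicate 1), 2 to 7 at 24 h (2 without MEKi replicate 1, 3 without MEKi replicate 2 or DMSO replicate 1 or 2) and 1 to 4 for the difference (4 without MEKi replicate 1 of 72 h). No called difference changed sign. The replicate block gave 10, 5 and 2 calls for these comparisons, and of the calls it ended none beyond those given in the text lay within a time. As a number shared across times it gave 8 calls with MEKi and 11 with DMSO for 72 h against 24 h, and there Tet1 1419896_at lost its call (0.31, adjusted p = 0.0586). The cause of these changes was not tested, other than that fits without an array have fewer samples. For probe sets near the lower end of the scale, such as 1447217_at of Uhrf2, how far the signal stood above background was not known.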
